A study of Mus musculus with 6 samples.

Results

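Cycling macrophages were examined as the nuclei of TC1 tumors that carried messengers of macrophages together with messengers of cell division. The 6 libraries held 18865 barcodes, and 18014 nuclei had between 100 and 7500 genes and under 20% mitochondrial counts. A nucleus was counted as a macrophage when the tumor genes Hmga2, Mecom and Slit2 made up under 0.5% of its unique molecular identifiers (UMIs) and when 9 macrophage genes (Adgre1, Cadm1, Csf1r, Cd84, Lair1, Spi1, Mrc1, Stab1 and Ms4a7) gave at least 3 counts in sum. It was counted as cycling when 7 division genes (Mki67, Top2a, Cenpf, Cenpe, Kif11, Aspm and Tpx2) gave at least 3 counts spread over at least 2 of them. This left 532 cycling macrophages among 4363 macrophage nuclei, or 12.2% of them. The nuclei set beside them were the 2315 macrophages with 0 counts of the 7 division genes, called non-cycling here. The remaining macrophages had some division counts but too few for the rule.

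Each library came from nuclei of a frozen subcutaneous tumor grown from TC1, a lung tumor line of the mouse, and the 3 replicates of a group are given as biological replicates. All mice, in both groups, carried loxP sites in both copies of Slc16a7 and a Cre transgene that tamoxifen switches on. Slc16a7 is the gene of the monocarboxylate transporter MCT2 (GRCm38 chr10:125219270-125389465, minus strand). The age given for the mice, 8 weeks, is the age at which the study describes the tamoxifen dosing, before the tumors grew. The knockout group (KO, 3 libraries) received tamoxifen on 5 days and the control group (CO, 3 libraries) received the vehicle, so tamoxifen itself and loss of the gene cannot be told apart. TC1 cells were injected 2 days after the last dose, are a line of their own that does not carry the mice's genotype, and grew for 24 days. Cre was not restricted to macrophages, and nothing in the labels says which libraries received extra washes against free RNA, so washing was not tested. The kept nuclei summed to between 7950194 and 17797579 UMIs per library, and the cycling macrophages to between 76057 (KO replicate 2) and 347529 (KO replicate 1). A share of nuclei depends on which nuclei were recovered as well as on how many were in the tumor, and the 2 cannot be told apart here.

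Tumor macrophages arise from blood monocytes that enter the tissue and mature there, and also from resident macrophages that divide in place, a step that signals through the CSF1 receptor sustain. A dividing cell first licenses and copies its DNA (the Mcm helicase, DNA polymerases and the kinases that fire origins), then condenses and pulls apart its chromosomes (condensins, kinetochores and spindle motors) and cleaves in 2. Most genes of the later step are silent in resting cells and are switched on together in G2 and mitosis.

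The rule asked for counts in at least 2 of the 7 division genes. Exactly 2 were counted in 136 members, 3 in 199 and all 7 in 5. Top2a, which untangles DNA, was counted in 460 of the 532 nuclei (86.5%), Mki67, a coat protein of mitotic chromosomes, in 275 (51.7%), and Tpx2, a spindle assembly factor, in 263 (49.4%). Aspm, a spindle pole protein, was the one seen least often, in 78 (14.7%). Members had a median of 5 such counts, an upper quartile of 7 and a maximum of 76, and 197 of them had counts in 4 or more of the 7 genes. The macrophage genes of the rule were read as follows. Cadm1, an adhesion protein, was counted in 70.9% of members, Spi1, the myeloid transcription factor PU.1, in 62.4%, and Adgre1, which encodes the macrophage antigen F4/80, in 58.5%. In non-cycling macrophages these shares were 59.6%, 50.4% and 51.7%, at a lower depth. These values chose the nuclei and are given as a description.

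Division genes outside the rule gave the following levels, also as a description, since the nuclei were chosen by division counts. The mitotic lists (92 genes of kinetochores, spindle motors, and mitotic kinases and cyclins) summed to between 86.0 and 127 counts per 10000 UMIs in the members of the 6 libraries. They summed to between 24.2 and 33.7 in non-cycling macrophages, so the libraries did not overlap. In nuclei of tumor cells that met the same cycling rule the sums were between 89.2 and 112, which overlaps the range of the members. Members at the lower edge of the rule, with exactly 3 counts (146 nuclei), had 79.6 mitotic counts per 10000 UMIs, against 50.3 in the 302 macrophages just outside it with 2 counts in 2 genes and 36.4 in those with 1 count. Members with 10 or more counts (60 nuclei) had 130.3. The 24 macrophages with 3 or more counts in 1 gene, which the rule leaves out, had 78.7.

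**Figure D1:**
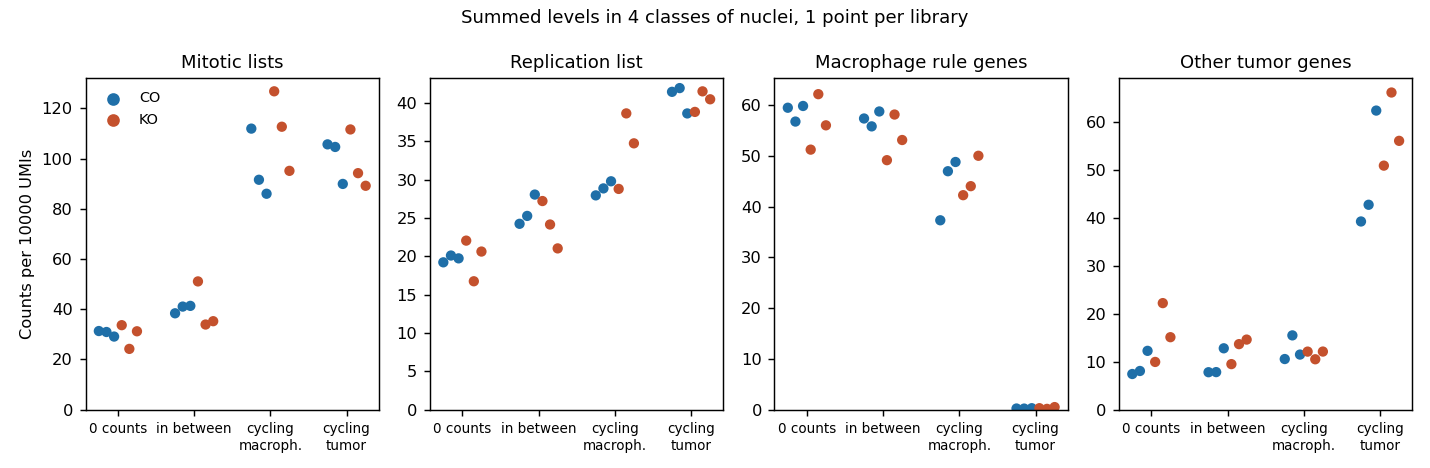
Counts per 10000 UMIs (y axis) of 4 gene groups in 4 classes of nuclei (x axis), with 1 point per library in blue (CO) or orange (KO). Mitotic lists gave 86.0 to 127 in cycling macrophages and 89.2 to 112 in cycling tumor nuclei. Tumor genes outside the rule gave 10.5 to 15.5 and 39.2 to 66.1. The nuclei were chosen by division, tumor and macrophage counts, so these levels are a description. Macrophage rule genes are near 0 in cycling tumor nuclei because the rule sets them so.

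Markers of other cells were measured in the members. Of 24 further tumor genes, 20 had counts in members, and their sum was between 10.5 and 15.5 counts per 10000 UMIs, beside 7.45 to 22.2 in non-cycling macrophages and 39.2 to 66.1 in cycling tumor nuclei. Igf2bp2, one of them, was called higher in members than in non-cycling macrophages (0.93 ± 0.28 on the log2 scale, higher in 5 of 6 libraries, and 0.65 without a call at matched depth). Within libraries the sum of the 24 genes was higher in members than in non-cycling macrophages in 3 libraries and lower in 3. The higher ones were CO replicates 1 and 2 and KO replicate 1 (10.6 against 7.45, 15.5 against 8.08 and 12.1 against 9.96). Hmga2, Mecom and Slit2 together were higher in the same 3 libraries (9.54 against 2.35, 9.29 against 3.74 and 7.65 against 4.36) and lower in 3. A set of 13 members had 10 or more counts of Hmga2, Mecom and Slit2 and at most 5 macrophage counts. They were 2.44% of the members, with a median of 6100 UMIs, and gave 34.7% of the members' mitochondrial counts. Another set of 32 members had 3 or more counts of T and NK cell genes, a list that summed to 1.32 to 7.36 counts per 10000 UMIs in members and 0.425 to 2.07 in non-cycling macrophages. All 18 genes of that list had counts in members. Skap1, the only 1 of the 18 with enough counts to be tested, was called higher in members (1.38 ± 0.32). It was higher in 5 of 6 libraries and stood at 0.81 without a call at matched depth. In KO replicate 2 it had 502 CPM in members and 6.80 in non-cycling macrophages. Neutrophil genes summed to at most 0.263 in members, with Retnlg, Cxcr2 and Elane at 0, and to at most 0.0608 in non-cycling macrophages. Muscle genes summed to at most 0.450 in members and to 0.108 to 19.7 in non-cycling macrophages, where CO replicate 3 had the 19.7. Dendritic cell genes summed to 3.395 to 8.68 in members and 4.20 to 5.93 in non-cycling macrophages, endothelial genes to 0.950 to 4.43 and 1.40 to 3.73, and fibroblast genes to 2.70 to 7.12 and 2.39 to 7.17. Pdgfra, a fibroblast marker, was called higher in members (0.77 ± 0.25, higher in 4 of 6 libraries, and 0.82 with a call at matched depth). B cell genes summed to 0.687 to 3.98 in members and 0.557 to 2.43 in non-cycling macrophages, with 5 of 8 genes having counts. Ebf1, one of those 5, stood at 0.91 ± 0.32 and was not called. The part of such cells in the values of members and of non-cycling macrophages was not tested. Of the 32 tissue macrophage genes outside the rule, 29 had counts in members. Itgam, which encodes CD11b, had 0 counts in members, in other macrophages and in cycling tumor nuclei. A count of 0 over the 1244487 UMIs of the members allows up to 2.41 CPM (counts per 1000000 UMIs), for counting error only. This limit is not scaled between libraries, while the CPM of single libraries are. Irf8, from another list, was likewise at 0 in all these classes. Whether reads of Itgam and Irf8 could be counted in these data was not tested, so their 0 is not read as absence.

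Depth and doublets moved with membership. The median member held 1577 to 2573 UMIs per library and the median non-cycling macrophage 1058 to 1270. The nuclei with the highest doublet scores of each library were marked, at 0.8% per 1000 barcodes, 500 in all. Among them were 20 members (3.76% of members) and 24 non-cycling macrophages (1.04% of these). The marked nuclei were kept in the main results and left out only in the alternative with doublets removed. Of 48 barcodes found in 2 libraries 2 were members, and 0 members shared one with another member. Muscle nuclei, which do not divide, were taken for comparison. In all, 1 of 43 nuclei with 10 or more muscle counts (2.33%, exact 95% interval 0.0589 to 12.3%) met the cycling rule at a median of 1654 UMIs. The macrophages gave 12.2% (11.2 to 13.2%) at a median of 1240 UMIs, and with 43 muscle nuclei the 2 intervals overlap. Both intervals pool nuclei over libraries. Other nuclei met the rule as often or more often. Of nuclei with 5 or more T and NK cell counts 46 of 346 did (13.3%), at a median of 1063 UMIs. Of those with 5 or more endothelial counts 16 of 60 did (26.7%), at a median of 1856.5 UMIs. Counts of the 3 tumor genes in macrophages differed between libraries. In KO replicates 2 and 3, 8.93% and 5.65% of non-cycling macrophages lacked any such count, and in the other 4 libraries 40.5% to 77.2% did. The part of free RNA in these values was not tested.

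The first comparison asked whether a larger share of macrophages cycled in KO tumors. It did not differ beyond the spread between libraries. Members made up 12.4%, 8.42% and 12.9% of macrophage nuclei in CO replicates 1 to 3 and 15.6%, 12.3% and 11.2% in KO replicates 1 to 3. The groups overlapped, and CO replicate 2 and KO replicate 1 were the lowest and the highest library. The means were 11.2% ± 2.46 (SD, n = 3) for CO and 13% ± 2.28 (SD, n = 3) for KO, a difference of 1.76 percentage points (two-sided exact permutation test, p = 0.6, and 0.9 after Benjamini-Hochberg adjustment over 5 tests; 3 against 3 libraries cannot go below 0.1). Wilson 95% intervals from counting alone ran from 6.76% to 10.4% in CO replicate 2 and from 13.6% to 17.8% in KO replicate 1. Macrophages with at least 1000 UMIs were also thinned to 1000, and those with fewer were left out. This kept 448, 621 and 312 nuclei in CO replicates 1 to 3 and 825, 154 and 726 in KO replicates 1 to 3. The CO mean was then 6.92% ± 1.70 and the KO mean 8.61% ± 2.22 (SD, n = 3 each, two-sided exact test, p = 0.5).

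With the tumor genes held under 0.1% of UMIs the KO libraries all lay above the CO libraries. CO replicates 1 to 3 then had 11.9%, 8.40% and 15.7%, and KO replicates 1 to 3 had 16.5%, 17.1% and 19.3%, a difference of 5.63 points at the smallest p that 3 against 3 libraries allow (exact permutation test, p = 0.1). That limit removed most macrophages of KO replicates 2 and 3, leaving 41 of 220 and 176 of 985, and 616 of 680, 750 of 879, 318 of 448 and 953 of 1151 in the other 4 libraries. As a share of all kept nuclei members averaged 2.82% for the CO and 2.78% for the KO libraries (two-sided exact test, p = 0.9), and KO replicate 2, where macrophages of any kind were 11.1% of nuclei, had the lowest value, 1.37%.

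**Figure D2:**
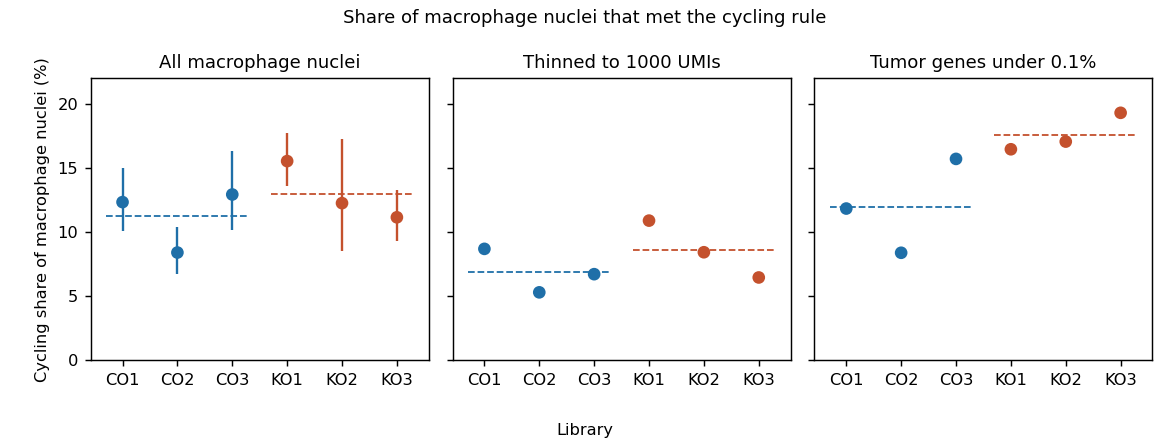
Percent of macrophage nuclei that met the cycling rule (y axis) in each library (x axis). The panels show all macrophages (bars are Wilson 95% intervals), those with at least 1000 UMIs after thinning to 1000, and those with tumor genes under 0.1%. Dashed lines are group means. CO (blue) and KO (orange) overlap in the first 2 panels (means 11.2% and 13%, then 6.92% and 8.61%) and do not in the third (12% and 17.6%), where KO replicate 2 has 41 nuclei.

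The next comparison described what else was carried by a macrophage that cycled. Counts were summed per library for members and for non-cycling macrophages and fitted with edgeR, with the library as a block; a gene was called at a log2 fold change of at least 0.58 in size and an adjusted p of at most 0.05. Among 5900 genes outside the rule, 331 were called higher in members (5.61%) and 240 lower (4.07%). The nuclei were chosen by their division counts, so these calls are a description and not independent evidence, and the 5.61% and 4.07% are themselves shares of the contrast that chose the nuclei. The split was different when each member was set beside the non-cycling macrophage nearest in depth: 193 higher and 57 lower were then called, and DESeq2 called 247 higher and 96 lower. Of the 331 genes, 246 could be fitted at matched depth, and 171 of them were called again. Of the 240 lower genes 180 could be fitted, and 34 were called again.

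Genes of chromosome segregation and cytokinesis led the higher side. Iqgap3, a scaffold protein, had 53.6 to 128 CPM (median 88.9) in members and 0 to 10.2 (median 3.75) in non-cycling macrophages, a log2 fold change of 4.01 ± 0.35 (SE). Knl1, the kinetochore platform for the spindle checkpoint, had 360.1 to 575 CPM (median 420.3) against 27.3 to 56.6 (median 35.7), or 3.43 ± 0.16 on the log2 scale. The 6 libraries of members lay above all 6 of non-cycling macrophages for both genes. Kif15, a spindle motor, differed by 3.39 ± 0.19, Kif14 by 3.69 ± 0.42, Kif18b by 3.3 ± 0.33, and Ttk, the checkpoint kinase that acts at kinetochores, by 3.28 ± 0.30 on the log2 scale. The rest of the 12 genes with the largest differences were Depdc1b, Efcab11, Ccdc18, Fancd2, Ankle1 and Cdca2, between 3.22 and 3.98, each higher in 6 of 6 libraries.

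By role, the calls were as follows among the genes with enough counts to be tested. Of 24 spindle genes tested, from a list of 30, 22 were called higher (median log2 fold change 2.42), and of 20 kinetochore genes tested, from 29, 18 (2.04). Condensin, cohesin and cytokinesis genes gave 16 of 22 tested, from 24 (1.25), with Cit, a kinase of the cleavage furrow, at 3.09 ± 0.22. Mitotic kinases and cyclins gave 13 of 20 tested, from 33 (1.47), among them Ccnf (2.67 ± 0.21), Aurka (2.27 ± 0.28) and Wee1, the kinase that holds Cdk1 back (1.73 ± 0.28). The 13 not tested include Ccnb1, Ccna2, Aurkb, Foxm1 and Plk4. Repair and fork protection genes gave 17 of 22 tested, from 30 (1.61), with Fancd2, Brca1 and Brip1 at 3.34 ± 0.32, 2.32 ± 0.20 and 2.16 ± 0.19. The median over all 5919 genes tested was -0.06. None of the 166 tested genes in the 8 cell cycle lists was called lower, and 106 were called higher.

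The replication list was mixed. Of 26 tested 11 were called higher (median 0.47): Ticrr, needed to fire origins, stood at 2.88 ± 0.28, Clspn, the fork mediator claspin, at 1.59 ± 0.21, and Pola1, the polymerase that makes primers with primase, at 1.09 ± 0.12 on the log2 scale. The helicase genes Mcm3, Mcm5 and Mcm6 were not called, at -0.46 ± 0.25, -0.19 ± 0.26 and -0.20 ± 0.21, nor was Pcna, the sliding clamp, at -0.27 ± 0.14, with 130.4 to 208 CPM in members against 163 to 218. Mcm2, Mcm4, Cdc6 and Cdc45 had too few counts to be fitted. In nucleotide synthesis 4 of 15 genes were called, Tk1, Tyms, Rrm1 and Rrm2, between 0.64 and 0.90. In the G1/S list the 5 of 17 called were E2f7, E2f2, Rbl1, Ccne2 and Skp2, with E2f7, a repressor of E2F targets, at 2.23 ± 0.31. The D-type cyclin genes that begin the cycle were not among them: Ccnd1 stood at -0.29 ± 0.19, Ccnd2 at 0.04 ± 0.16 and Ccnd3 at -0.55 ± 0.18. No p53 target of 10 tested was called in either direction, and the cell cycle inhibitor gene Cdkn1a stood at -0.47 ± 0.15 (-0.04 at matched depth).

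**Figure D3:**
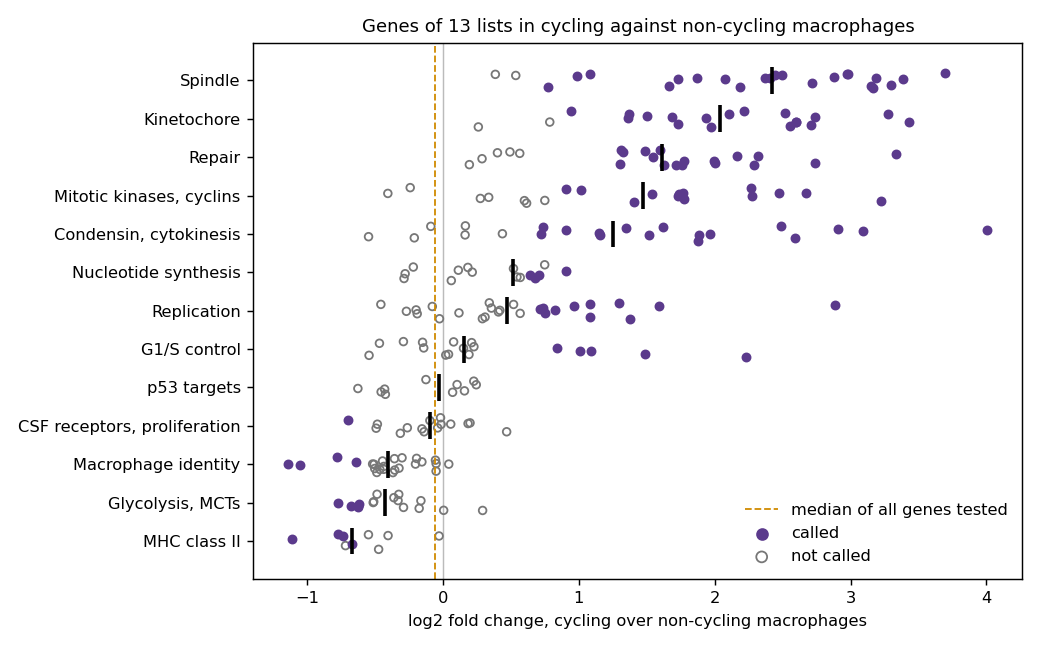
Log2 fold change of cycling over non-cycling macrophages (x axis) for each tested gene of 13 lists (y axis); filled points were called, open points were not, black ticks are list medians and the dashed line is the median of all genes tested, -0.06. Spindle and kinetochore lists have medians of 2.42 and 2.04, replication 0.47, and the macrophage identity, glycolysis and MHC class II lists lie below 0 at -0.40, -0.42 and -0.67.

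Promoters of some of these genes are shown because 2 short motifs of cell cycle genes were counted in them. The cell cycle homology region (CHR) is written TTTGAA, was searched on both strands, and is known as a docking site of the complexes that silence and then activate G2/M genes. The motif of E2F factors was searched as TTCCCGC, also on both strands, so that capitals may show either motif as its reverse complement. A gene that held both motifs was counted for each. Windows were 110 bases long, 60 before to 50 after the start, from RefSeq on GRCm38.p6, read on the strand of the gene. The motif is in capitals in each of the following. The first 5 are of 2 rule genes and 3 of the genes with the largest differences and hold the CHR, and the last 2 are of called replication genes and hold the E2F motif.
Top2a, chr11:99024140-99024249, minus strand: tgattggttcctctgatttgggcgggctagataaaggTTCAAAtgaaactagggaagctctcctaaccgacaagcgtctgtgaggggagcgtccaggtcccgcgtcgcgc
Kif11, chr19:37376322-37376431, plus strand: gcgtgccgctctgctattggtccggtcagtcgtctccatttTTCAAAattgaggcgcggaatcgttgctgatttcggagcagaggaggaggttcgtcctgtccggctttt
Iqgap3, chr3:88081991-88082100, plus strand: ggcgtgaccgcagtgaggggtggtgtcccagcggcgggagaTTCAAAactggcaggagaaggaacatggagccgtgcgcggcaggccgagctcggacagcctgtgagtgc
Kif18b, chr11:102925075-102925184, minus strand: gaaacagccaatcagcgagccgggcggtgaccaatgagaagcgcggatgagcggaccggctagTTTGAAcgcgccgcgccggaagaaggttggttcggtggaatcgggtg
Ttk, chr9:83834629-83834738, plus strand: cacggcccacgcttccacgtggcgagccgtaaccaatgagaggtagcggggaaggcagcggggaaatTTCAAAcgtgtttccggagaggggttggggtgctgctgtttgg
Prim1, chr10:128015155-128015264, plus strand: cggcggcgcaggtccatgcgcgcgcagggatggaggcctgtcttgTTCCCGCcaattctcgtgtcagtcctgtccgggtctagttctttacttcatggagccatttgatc
Chaf1a, chr17:56040356-56040465, plus strand: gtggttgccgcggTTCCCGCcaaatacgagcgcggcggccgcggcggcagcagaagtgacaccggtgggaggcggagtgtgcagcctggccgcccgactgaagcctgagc

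The CHR was in the 110 base window of 63 of 259 genes called higher (24.3%), 7 of 191 called lower (3.66%), and 6.36% of all 27025 genes with a window. Among the tested genes with a window it was 4.82%. It was found in 48 of 96 genes of the kinetochore, spindle, mitotic kinase and condensin lists and in 4 of 36 replication genes. The E2F motif was in 23 of 259 genes called higher (8.88%), 6 of 191 called lower (3.14%) and 4.51% of the tested genes with a window. It was in 13 of 36 replication genes, 8 of 96 of those mitotic lists and 2.18% of all genes. For the 26 tissue macrophage genes with a window the counts were 1 for the CHR and 2 for the E2F motif. A match is a description of letters and not of a bound site.

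Macrophage function genes made up the lower side. Lyz2, which encodes lysozyme, had 59.0 to 500.0 CPM (median 139.8) in members and 102 to 1015 (median 285) in non-cycling macrophages, and was lower in members of all 6 libraries, by -1.06 ± 0.13 on the log2 scale (-0.93 at matched depth). The 2 states overlapped across libraries, and KO replicate 1 was the highest library in both. Pltp, a phospholipid transfer protein, had 29.5 to 87.7 CPM (median 46.4) against 75.1 to 156 (median 136), or -1.13 ± 0.20. It was called again at matched depth, at -1.37, as was the interferon-inducible gene Slfn5 (-1.10 ± 0.18 and -1.10). Also among the 12 lowest genes were Eya4, F13a1, Rara, Cd40, Atp5g1, Selenop, Surf4 and Edil3, between -1.18 and -1.02. Of these 8 only Atp5g1 could be fitted at matched depth, where it was not called (-0.74).

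Among lists of macrophage genes, 23 of 24 tissue macrophage identity genes lay below 0 and 4 were called lower: Lyz2, F13a1, Apoe (-0.78 ± 0.11) and Fcgr1, a high-affinity Fc receptor (-0.64 ± 0.17). The list median was -0.40, and -0.35 at matched depth with 2 calls, while over all genes the medians were -0.06 and -0.05. The complement genes C1qa, C1qb and C1qc stood at -0.52, -0.36 and -0.32 and were not called. Ptprc, which encodes CD45, differed by -0.16 ± 0.08. The rule asks for 3 macrophage counts whatever the depth, which favours a high macrophage fraction in shallow nuclei, so the matched values are the ones with that difference in depth reduced.

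MHC class II genes present antigen to CD4 T cells. All 9 tested lay below 0 (median -0.67), and H2-Aa, H2-Ab1, H2-Eb1 and Cd40, a costimulatory receptor, were called. H2-Aa had 169 to 305 CPM (median 237) in members and 265 to 741 (median 363) in non-cycling macrophages, and was lower in 6 of 6 libraries (-0.77 ± 0.13, and -0.72 at matched depth, where it was called again). H2-Eb1 and H2-Ab1 stood at -0.67 and -0.73 and, at matched depth, at -0.49 and -0.56 without a call. The number called was 1 of 8 when nuclei had at least 500 genes and under 5% mitochondrial counts. Of 15 monocyte genes 5 were tested (median -0.33), with 2 called lower and 2 above 0, Cd300e at 0.52 ± 0.26 and Itgal at 0.10 ± 0.24. The called genes Ccr2, the receptor that draws monocytes into tissue, and Slfn4 were lower by -0.82 ± 0.20 and -0.86 ± 0.16 on the log2 scale, and both were called again at matched depth (-0.91 and -0.98). For Ccr2 the direction held in 5 of 6 libraries.

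Of the 15 genes of CSF receptors and proliferation control only Csf3r, the G-CSF receptor, was called (-0.70 ± 0.14, and -0.74 at matched depth), and the list median, -0.10, was close to that of all genes. Csf1r, a gene of the rule, had 237 to 325 CPM in members and 331 to 496 in non-cycling macrophages. Of 16 genes of glycolysis and monocarboxylate transport 14 lay below 0 (median -0.42), with Aldoa, Pgk1, Tpi1, Pgam1 and Pfkfb3 called, but the median was -0.17 at matched depth and only Pfkfb3, which drives glycolysis through fructose 2,6-bisphosphate, was called there (-0.62 ± 0.16, and -0.84). Slc16a7 was not called, at -0.29 ± 0.17, with 59.0 to 189 CPM in members against 127 to 208.

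Mitochondrial messengers were higher in the sums of members. All 11 tested were called, between 0.79 and 1.07 on the log2 scale, and they were 1.52% to 3.64% of members' UMIs against 0.663% to 1.97%. The difference rested on few nuclei: the 35 members with 5% or more mitochondrial counts (6.58% of members) gave 70.9% of these counts, and in nuclei with at least 500 genes and under 5% mitochondrial counts the median of the 9 genes tested was -0.07 and 0 were called. At matched depth, without that limit, 9 of 10 were still called. It was likewise -0.04 with 0 of 9 called when the tumor genes were held under 0.1%.

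**Figure D4:**
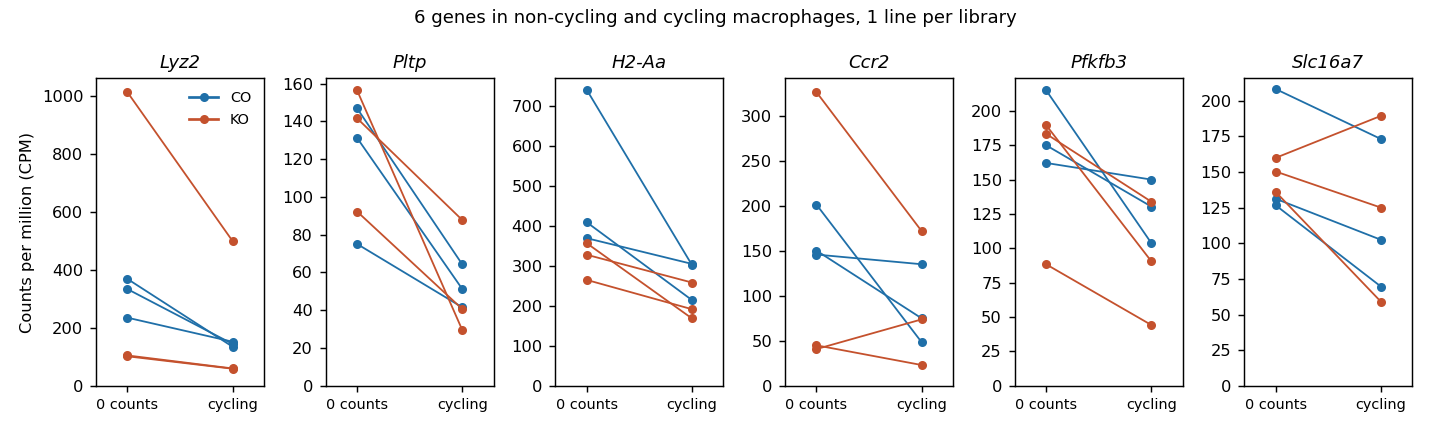
CPM (y axis, each panel with its own scale from 0) of 6 genes in non-cycling (0 counts) and cycling macrophages, with 1 line per library in blue (CO) or orange (KO). Lyz2, Pltp, H2-Aa and Pfkfb3 are lower in cycling macrophages of 6 of 6 libraries, and Ccr2 and Slc16a7, which was not called, in 5 of 6.

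The next comparison placed members beside cycling tumor nuclei, which met the same division rule, and asked which step of the cycle their messengers came from. The replication list was divided by its sum with the 3 mitotic lists. None of these lists holds a gene of the rule. In macrophages the mitotic counts per UMI still rose with the rule counts, so the share depends on how nuclei were chosen. The replication share in members was 19.99%, 24.0% and 25.7% in CO replicates 1 to 3 and 18.5%, 25.5% and 26.8% in KO replicates 1 to 3. In cycling tumor nuclei of the same libraries it was 28.2%, 28.6%, 30.1%, 25.8%, 30.6% and 31.2%. Members were lower in 6 of 6 libraries. The means were 23.4% ± 3.38 and 29.1% ± 1.98 (SD, n = 6 libraries), a difference of -5.67 points with a range of -8.20 to -4.33 (exact paired permutation test, two-sided, p = 0.03125, the smallest that 6 libraries can give). The tumor nuclei were much deeper, with median UMIs of 5660 to 11334. The rule asks for the same number of division counts whatever the depth, which favours a high mitotic fraction in shallow nuclei. Relative to UMIs, the rule's division genes gave more counts in members than in cycling tumor nuclei of each library. The share therefore cannot separate the step of the cycle from this choice of nuclei. The part of this choice in the difference was not tested. Against tumor nuclei taken nearest in depth the difference was -3.3 points, lower in 5 of 6 libraries and reversed in KO replicate 2, and no longer passed (exact paired permutation p = 0.09375). Between KO and CO members the share did not differ beyond the spread (23.6% ± 4.45 and 23.2% ± 2.94, n = 3 each, exact permutation p = 0.9).

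**Figure D5:**
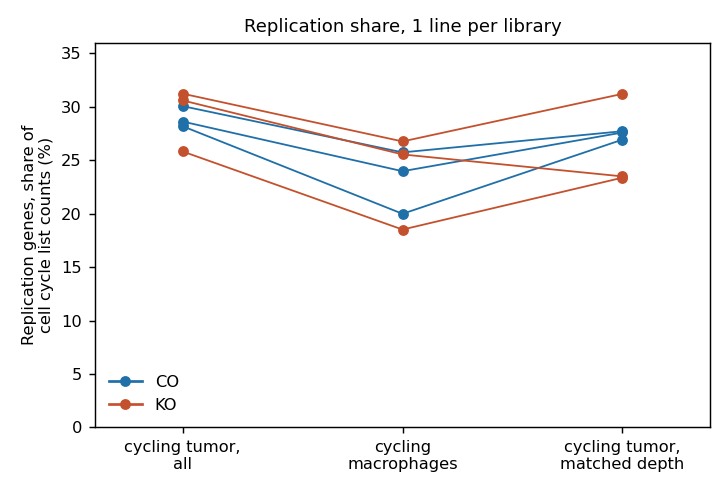
Replication genes as a percent of replication plus mitotic list counts (y axis) in cycling tumor nuclei, cycling macrophages, and cycling tumor nuclei nearest to them in depth (x axis), with 1 line per library. All 6 lines fall from the first class to the second (mean difference -5.67 points) and 5 of 6 rise to the third.

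The comparison of KO with CO members gave 0 called genes with edgeR. Slc16a7 itself had 22, 13 and 25 UMI counts in CO members and 40, 4 and 41 in KO members, or 109, 73.8 and 184 CPM against 131, 59.4 and 198. The groups overlapped (log2 fold change 0.23 ± 0.41, edgeR adjusted p = 0.999). Nuclear RNA from outside the deleted part would still be counted, and where the loxP sites lie is not given in the sources used here, so this does not check the deletion. Of 5206 genes 0 were called (0%), 187 had an unadjusted p under 0.05, the smallest adjusted p was 0.994, and DESeq2 also called 0. The biological coefficient of variation between libraries was 24.9%.

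For 512 of the 5206 genes (9.83%) the 3 libraries of one group did not overlap those of the other. Of all orderings of 3 against 3 libraries a share of 0.1 separates the groups, so 9.83% is near the share with no group difference. The genes with the smallest p values were among the 512. Etv1, an ETS transcription factor, had 14.8, 17.0 and 22.1 CPM in CO members and 59.0, 89.2 and 130.2 in KO members (log2 fold change 2.33 ± 0.52, edgeR adjusted p = 0.994). Usp18, an interferon-induced protease, had 287, 346 and 280 against 187, 89.2 and 96.5 (-1.19 ± 0.32, edgeR adjusted p = 0.994). Neither passed the test, and the same holds for Oprm1, Cacul1, Dmxl2, Tmem176b, Macrod2, Ric1, Kcnrg and Ccdc12. In the 8 cell cycle lists 126 of 173 tested genes were higher and 47 lower in KO members, 8 had an unadjusted p under 0.05, 31 did not overlap between groups, and 0 were called. The 9 rule genes of macrophages had a median log2 difference of -0.08 and the 7 of division 0.39. The 3 tumor genes of the rule were at 0.96 ± 0.39 (Hmga2), 1.07 ± 0.46 (Slit2) and 0.31 ± 0.34 (Mecom), 2 of them with an unadjusted p under 0.05 and none called, and their part in the KO-CO differences was not tested. Without KO replicate 1, which held 179 of the 316 KO members, 59 genes were called (16 higher and 43 lower in KO), and leaving out any other library gave 0.

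Whether the KO difference itself was unlike that in non-cycling macrophages was tested as an interaction. Of 6887 genes 6 were called (0.0871%), all with a lower KO-CO change in cycling macrophages: Slit3, Dlc1, Ebf1, Plcb1, Apbb2 and Ube2e2. Slit3, a guidance ligand, had 0, 5 and 19 counts in CO members, 2, 0 and 0 in KO members, 0, 2 and 4 in CO non-cycling macrophages and 1, 14 and 76 in KO non-cycling macrophages. Most counts thus came from CO replicate 3 on the cycling side and KO replicate 3 on the non-cycling side. The fitted interaction was -6.97 ± 1.09 on the log2 scale (edgeR adjusted p = 0.00127), and since a whole group of members was at or near 0 its size is no measure of fold. Without KO replicate 2 only Slit3 was called. Without KO replicate 3 none of the 6 was, and the 1 gene called was higher. Without CO replicate 3 40 were, without KO replicate 1 31 were, without CO replicate 2 3 were, and DESeq2 called 0.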

How the data were processed

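Single-nucleus RNA was measured in 6 libraries (3 CO, 3 KO). The values are whole UMI counts per gene and nucleus as deposited by the authors, made with Cell Ranger (3.0.2 per the labels, 3.1.0 per the file headers) on GRCm38; the authors also used Seurat 5.2.1. Correction for free RNA is described in the study, but the values are whole numbers and were used as they stand. Counts were summed per library and class of nuclei and tested with edgeR 4.0.16 (quasi-likelihood test, TMM scaling, filterByExpr, R 4.3.3), with DESeq2 1.42.0 as an alternative; calls needed a log2 fold change of at least 0.58 in size and a Benjamini-Hochberg adjusted p of at most 0.05 over all genes tested. CPM are TMM-scaled separately in each comparison, so the same members can have different CPM in 2 comparisons. They are not scaled in the interaction or in the limit from a count of 0. Shares were compared by exact permutation tests over libraries in Python 3.11.15 with scipy 1.17.1, and doublet scores came from scanpy 1.11.5. Intervals and limits from a count of 0 cover counting error only. The fits were tested on simulated data (5217 genes for KO against CO): of genes changed by 1 on the log2 scale between KO and CO members 26 of 91 were recovered, and of those changed by 2, 81 of 86.

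Named genes were the rule genes, the 12 called genes with the largest difference in each direction and the same sign in 6 libraries, the 3 genes of each list with the smallest p, Slc16a7, and the 10 genes with the smallest p between KO and CO. Other genes were named after their values were seen (Mcm genes, cyclins, complement genes, Aurka, Wee1, Cdkn1a, Pcna, Ptprc, Pfkfb3, and further called members of short lists). Not every gene that the naming rule picks is reported here. The rule for members and the gene lists were chosen with earlier results of these data known.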

Additional observations from a re-analysis of the deposited data

Results flagged for a closer look

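For 6 genes the KO-CO change in cycling macrophages differed from that in non-cycling macrophages by the test of the interaction itself (edgeR, adjusted p of at most 0.05 over 6887 genes). The difference of the log2 changes was -6.97 for Slit3, -5.29 for Dlc1, -2.29 for Ebf1, -1.94 for Plcb1, -1.86 for Apbb2 and -1.60 for Ube2e2. Dlc1 had 0, 7 and 21 counts in CO members and 2, 0 and 3 in KO members, and 0, 3 and 2 in CO and 2, 11 and 30 in KO non-cycling macrophages. Ebf1 had 4, 24 and 42 counts in CO members and 11, 7 and 15 in KO members, and 6, 11 and 21 in CO and 10, 16 and 74 in KO non-cycling macrophages. For both genes the highest count was in CO replicate 3 among members and in KO replicate 3 among non-cycling macrophages. Without KO replicate 3 none of the 6 genes was called.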

How the results depend on the processing

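The share of macrophages that cycled was higher in KO under each alternative except as a share of all kept nuclei (-0.0444 points), did not pass the test in any of them (which 3 against 3 libraries cannot do), and differed by 0.348 to 2.67 points when 1 library was left out. The replication share of members stayed below that of cycling tumor nuclei, at -3.3 points and p = 0.09375 (exact) at matched depth and -5.94 to -5.16 points with 1 library left out, where 5 libraries cannot go below p = 0.0625 (exact). The number of genes called between cycling and non-cycling macrophages, 571 as reported, was 332 with tumor genes under 0.1%, 250 at matched depth, 343 with DESeq2, 818 with no filter on low counts, and 417 to 592 with 1 library left out. Between KO and CO members 15 were called with no filter, and 0 to 59 with 1 library left out, the 59 without KO replicate 1. The KO-CO difference of Slc16a7 ran from -0.14 to 0.63 with 1 library left out, and was below 0 without KO replicate 3 (-0.14) and without CO replicate 2 (-0.02). The interaction gave 14 genes with doublets removed, 1 with 5 counts in 3 cycling genes, 2 without nuclei with T/NK counts, 3 at matched depth, 0 with DESeq2 (59 at an unadjusted p under 0.05), 34 with no filter, and 1 to 40 with 1 library left out. Same-numbered CO and KO libraries deviated together by correlations of 0.17, -0.087 and 0.055, and differently numbered ones by -0.235 to 0.185. With so few libraries these values cannot decide whether same-numbered libraries shared a batch. With the replicate block p was 0.5 (exact) for the share and 0 genes were called between KO and CO (214 at an unadjusted p under 0.05). The cause of these changes was not tested.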
